A study of Mus musculus with 46 samples.

Results

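Mouse embryonic fibroblasts (MEF) that had just been infected with a pair of reprogramming factors were compared with MEF that carried no factor. The comparison takes 6 of the 46 samples of the series, chosen by their labels: 2 libraries of Nanog+Oct4 at day 0 (D0), 2 libraries of NanogN70+Oct4 at D0, and 2 MEF libraries. Nanog+Oct4 is the native pair. In NanogN70+Oct4, which the study calls NanogBiD, Nanog carries at its N-terminus the BRG1-interacting stretch of SS18, which belongs to the chromatin remodelling complex BAF, joined by a short linker. All cells were OG2 MEF, which carry an Oct4-GFP reporter transgene and were prepared from E13.5 embryos of OG2 males and females of a 129 strain, with embryos of either sex. Factors were carried by pMXs retroviruses made in Plat-E packaging cells, and the end of the last infection was designated D0, so D0 cells had not yet been placed in reprogramming medium. The labels give MEF no day, and do not say whether they went through the infection schedule without virus. Infection, factor expression, time in culture, the mix of embryo sexes and any difference in library preparation therefore cannot be told apart.

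Fibroblasts make the collagen, elastin and fibronectin of connective tissue, and they hold the genes of pluripotency silent. Oct4 (gene Pou5f1) and Nanog are transcription factors of the early embryo and of embryonic stem cells that bind many enhancers together. A retroviral vector drives them from its own promoter in every infected cell, while cells that escaped infection stay in the same culture, so a D0 library is an average over both. In such bulk samples fewer cells of a type and less RNA per cell cannot be told apart.

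Expression was read as FPKM, fragment counts scaled by transcript length and library size, and is given below for replicates 1 and 2 in that order. Differences are on the log2(FPKM + 1) scale with their standard error (SE), and adjusted p-values are from limma with Benjamini-Hochberg adjustment over the 17049 genes tested. A gene was called when its adjusted p was below 0.05 and its log2 difference was at least 1 in size. Nothing in the labels says that replicates came from separate cultures, so the p-values measure only a spread between libraries. That spread was estimated over all 34 libraries of the table, later days included, and not from the 6 compared libraries alone. Relative depth, read from the lowest values, ran from 0.911 to 1.00 over the 6 libraries, and 12417 to 12787 genes reached 1 FPKM in each.

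The factor genes were examined first as a check of the labels. Pou5f1 stood at 3200.3 and 1690.5 FPKM in Nanog+Oct4 D0, at 2154 and 2039.7 in NanogN70+Oct4 D0, and at 0.273 and 0 in MEF. Nanog stood at 497 and 450.3, at 684 and 644, and at 0.235 and 0.229 in the same order. Both factors were therefore high in all 4 D0 libraries and near 0 in both MEF libraries, and these reads include the vector's own transcript. Ss18, part of whose coding sequence is in the fusion, stood at 30.5 and 26.0 FPKM in Nanog+Oct4 D0, at 66.1 and 57.4 in NanogN70+Oct4 D0, and at 26.7 and 29.3 in MEF. It was higher in NanogN70+Oct4 D0 than in Nanog+Oct4 D0 by 1.10 on the log2 scale (limma, adjusted p = 0.00081), and reads of the fusion and of the native gene cannot be told apart in these values.

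The replicates agreed less well in Nanog+Oct4 D0 than in any other pair of libraries in the table. Between its 2 libraries the SD over genes of the log2 difference was 0.570, against 0.333 in NanogN70+Oct4 D0, 0.429 in MEF and 0.272 to 0.510 in the other 13 pairs. Pearson's r over genes within that pair was 0.961, against 0.986 in NanogN70+Oct4 D0 and 0.977 in MEF. The disagreement was uneven: 1122 genes were at least 1 higher on the log2 scale in replicate 1 and 308 were at least 1 lower. It also moved with sequence, since over genes the replicate difference had a Spearman's rho of 0.38 with GC content and of -0.51 with transcript length. Among the named genes, Lyz2, Rps28, Cxcl1, Rprm, Twist1, Tubb3, Ifitm3, Nupr1, Ier5 and Sod1 were over 1 higher on the log2 scale in replicate 1 than in replicate 2, and Lpl and Rmrp were over 1 higher in replicate 2. The part of these trends in the results below was not tested, but each count was repeated without that library and with both trends removed.

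**Figure D1:**
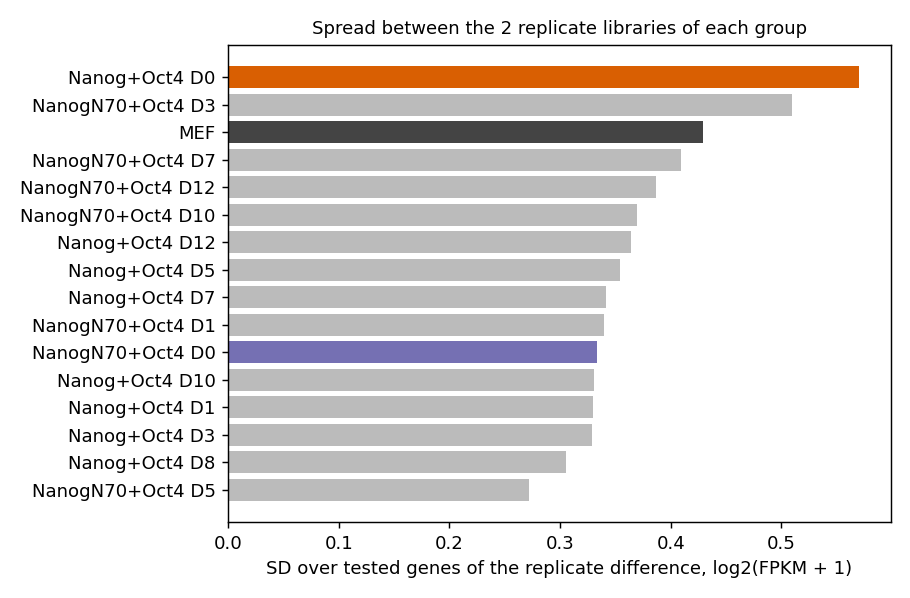
Spread between the 2 replicate libraries of each group, as the SD over tested genes of the difference in log2(FPKM + 1) on the horizontal axis, 1 bar for each of 16 groups. The bar of Nanog+Oct4 D0, at 0.570, is the longest, MEF is at 0.429 and NanogN70+Oct4 D0 at 0.333.

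Against MEF, 984 genes were called higher in NanogN70+Oct4 D0 (5.77% of those tested) and 949 lower (5.57%). In Nanog+Oct4 D0, 625 were called higher (3.67%) and 530 lower (3.11%). Without replicate 1 of Nanog+Oct4 D0 its counts were 724 and 885, and with the 6 libraries alone 90 and 51. Called the same way in both combinations were 472 higher genes (2.77%) and 434 lower genes (2.55%), and limma called 0 genes in opposite directions, with 5 at an unadjusted p below 0.05 in both. Both contrasts use the same 2 MEF libraries, so this count is not the meeting of independent results. Of the 472 higher genes, 471 had all 4 D0 libraries above both MEF libraries, and 431 of the 434 lower genes had all 4 below. Without any call, 18.4% of tested genes had all 4 above and 18.1% all 4 below. At an unadjusted p below 0.05 in both combinations, 2126 of the 17049 genes were higher and 2016 lower. Counts for the gene lists below are to be read against these values and the 2.77% and 2.55% called. Averaged over the combinations, 742 genes were called higher (4.35%) and 699 lower (4.10%), and differences quoted below are these averages.

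The number called the same way rested on how the spread was estimated. All 34 libraries of the table entered the fit, and with the 6 libraries alone the count was 74 higher (0.434%) and 47 lower (0.276%). Without replicate 1 of Nanog+Oct4 D0 it was 531 higher (3.11%) and 566 lower (3.32%), with 793 of the 906 genes called again. The difference between D0 and MEF also moved with GC content over genes, with a rho of -0.39, and with GC and length trends removed 370 genes were higher (2.32%) and 332 lower (2.08%), among them 615 of the 872 genes that could be tested that way.

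Besides the factor genes Pou5f1 and Nanog, which the naming rule leaves out, the 12 largest rises that met it were Cbln2, Serpini1, Mme, Gap43, Lyz2, Itga8, Parm1, Epha5, Rps28, Tspan7, Cldn1 and Ptx3, with averaged log2 differences from 3.11 to 4.65. Cbln2, a secreted organizer of synapses, was listed at 0 FPKM in both MEF libraries and stood at 24.2 and 21.9 in Nanog+Oct4 D0 and at 26.2 and 24.2 in NanogN70+Oct4 D0. The 4 D0 libraries lay close together for this gene and none of them overlapped MEF.

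Gap43, a membrane protein of growing axons, stood at 292 and 167 FPKM in Nanog+Oct4 D0, at 373 and 287 in NanogN70+Oct4 D0, and at 16.5 and 11 in MEF. Its mean was 20.3-fold higher at D0, with a log2 difference of 4.21 (SE 0.23, limma, adjusted p = 4.9e-11). Serpini1, the inhibitor neuroserpin, stood at 54.2 and 33.1, at 45.6 and 30.6, and at 0.901 and 0.511 in MEF. For Gap43 the lowest D0 library was replicate 2 of Nanog+Oct4.

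Mme, the surface peptidase neprilysin, stood at 48.2 and 94.0 FPKM in Nanog+Oct4 D0, at 88.6 and 97.9 in NanogN70+Oct4 D0, and at 6.15 and 0.716 in MEF (log2 difference 4.52, SE 0.43, limma, adjusted p = 1.6e-07). Itga8, an integrin subunit of mesenchymal cells, stood at 46.5 and 56.6, at 56.1 and 52.6, and at 3.84 and 2.14 in MEF. The D0 libraries spread little for Itga8, with a mean of 53 ± 4.67 (SD, n = 4) against 2.99 ± 1.20 (SD, n = 2), whereas the MEF libraries differed several-fold for Mme.

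Tspan7, a membrane tetraspanin, stood at 95.8 and 66.1 FPKM in Nanog+Oct4 D0, at 93.2 and 90.0 in NanogN70+Oct4 D0, and at 6.72 and 7.13 in MEF, a 12.5-fold rise of the mean. Ptx3, a secreted pentraxin of innate immunity, stood at 234 and 159, at 275 and 253, and at 52.1 and 12.0 in MEF. Cldn1, a tight junction protein, was low throughout, at 10.6 to 13.9 FPKM at D0 and 0.486 and 0.355 in MEF. For Rps28, a ribosomal protein gene, the D0 values of 60.4, 8.15, 10.6 and 33.3 FPKM were so uneven that the SE was 1.06, and the gene was no longer called without either MEF library.

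The 12 largest falls were Eln, Ccn5, Wisp2, Igfbp5, Gjb2, Fam20a, Mgp, Smoc1, Itga11, Col5a3, Trib3 and Il1rn, with averaged log2 differences from -5.59 to -2.85. Ccn5 and Wisp2 are 2 names of 1 gene that the table lists separately, so these are 11 genes. Eln, which encodes the elastic fibre protein elastin, stood at 1.86 and 2.51 FPKM in Nanog+Oct4 D0, at 1.03 and 0.893 in NanogN70+Oct4 D0, and at 261 and 54.1 in MEF. Its MEF mean was 100.1-fold the D0 mean, although the 2 MEF libraries themselves differed several-fold (log2 difference -5.59, SE 0.40, limma, adjusted p = 2.9e-09).

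Ccn5, a matricellular protein, stood at 2.59 and 1.57 FPKM in Nanog+Oct4 D0, at 0.173 and 1.14 in NanogN70+Oct4 D0, and at 69.7 and 63.8 in MEF. Gjb2, a gap junction connexin, stood at 0.154 to 0.332 in the D0 libraries and at 12.8 and 36.6 in MEF. Itga11, a collagen-binding integrin subunit, stood at 3.42 and 4.87, at 2.16 and 2.38, and at 48.3 and 31.7 in MEF. Every D0 library was below both MEF libraries for these genes, which the naming rule required. Ccn5 and Itga11 were lower in NanogN70+Oct4 D0 than in Nanog+Oct4 D0 in each library, but neither passed limma's test between the combinations.

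Among the 906 genes called the same way, 27 higher and 57 lower were not annotated as protein-coding. H19, an imprinted non-coding RNA beside Igf2 on chr7:142575530-142578146 of GRCm38.p6, stood at 70.3 and 102 FPKM in Nanog+Oct4 D0, at 54.8 and 65.2 in NanogN70+Oct4 D0, and at 5081 and 1419 in MEF. Its host transcript carries the microRNA Mir675, whose listed values of 10.3 to 54.2 at D0 and 2511 and 733 in MEF cannot be separated from those of H19. Gm11816 stood at 14 to 24.1 FPKM at D0 and at 0.0827 and 0.181 in MEF.

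**Figure D2:**
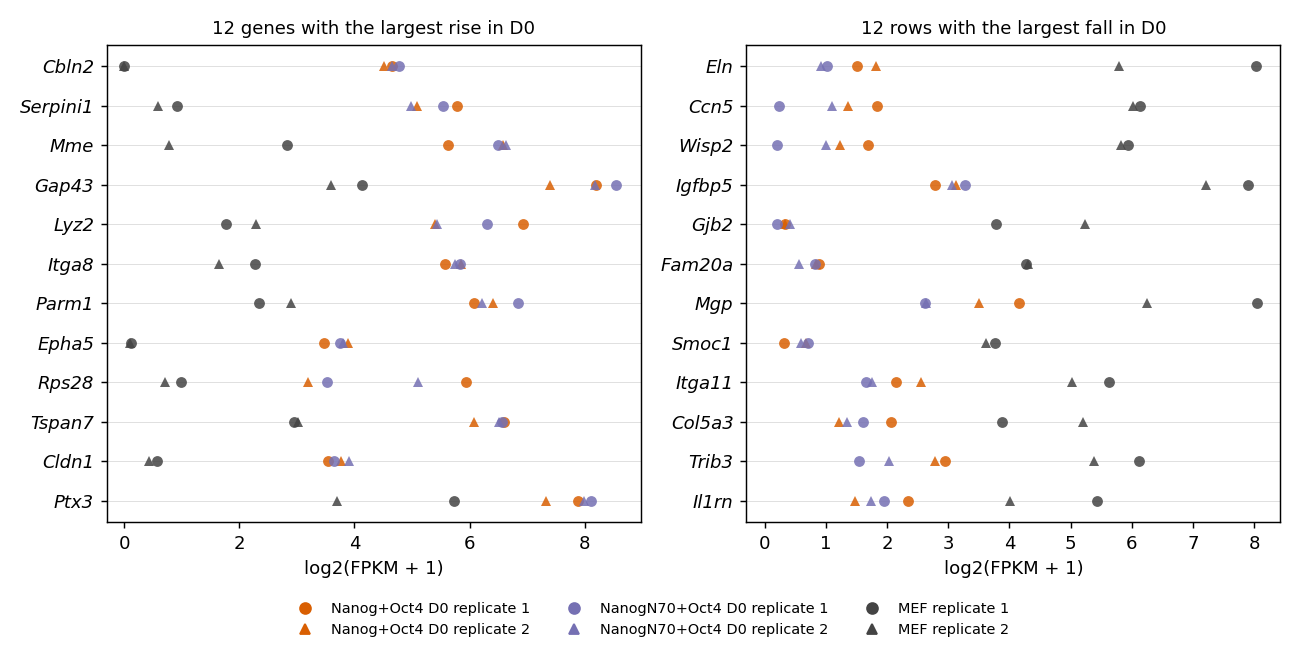
Log2(FPKM + 1) on the horizontal axis in each of the 6 libraries for the 12 genes with the largest rise (left) and the 12 entries with the largest fall (right) by the naming rule. Colour marks the group and shape the replicate. In each line the 4 D0 points lie on 1 side of the 2 MEF points, which the naming rule required. The D0 points of Rps28 are the most widely scattered.

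Most collagen genes fell. Of 22 tested, 15 were lower and 1 was higher in both combinations, with a median log2 difference of -1.54 against 0 over all tested genes. Col1a1, the major chain of type I collagen, stood at 822 and 814 FPKM in Nanog+Oct4 D0, at 587 and 634 in NanogN70+Oct4 D0, and at 3699.9 and 3344 in MEF. Its MEF mean was 4.93-fold the D0 mean (log2 difference -2.31, SE 0.22, limma, adjusted p = 1.2e-07). Col6a1, of the type VI microfibrils, stood at 51.7 and 40.2, at 30.3 and 25.6, and at 222 and 195 in MEF. D0 and MEF did not overlap for either chain.

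Other chains moved less or the other way. Col3a1, of the fibrils of skin and vessel, had 230.5 to 301 FPKM at D0 and 676 and 277 in MEF, and its log2 difference of -0.71 was below the limit. Col8a1, a short-chain collagen of vessel walls, rose: it stood at 199 and 277 in Nanog+Oct4 D0, at 265 and 287 in NanogN70+Oct4 D0, and at 85.7 and 77.3 in MEF. With the GC and length trends removed 12 collagen genes were lower in both combinations, and with the 6 libraries alone 2 were.

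The wider list of fibroblast and mesenchymal genes was mixed. Of 35 tested, 11 were lower and 2 higher in both combinations, and the median log2 difference was -0.69. Snai1, a repressor of epithelial genes, stood at 10.8 and 10.6 FPKM in Nanog+Oct4 D0, at 4.94 and 4.80 in NanogN70+Oct4 D0, and at 57.5 and 46.8 in MEF. Pdgfrb, a growth factor receptor, stood at 22.4 and 22.2, at 17.3 and 15.9, and at 70.5 and 74.2 in MEF. Both were lower in every D0 library than in either MEF library, and Twist1, another mesenchymal regulator, fell by 1.51 on the log2 scale.

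Not all fibroblast genes went down. Postn, a secreted matrix protein, stood at 595 and 403 FPKM in Nanog+Oct4 D0, at 730.0 and 525 in NanogN70+Oct4 D0, and at 134 and 136 in MEF, a 4.17-fold rise of the mean. Vim, which encodes the intermediate filament vimentin, had a log2 difference of 0.81, below the limit, with 3609 to 4214 FPKM at D0 and 1895 and 2624 in MEF. Sparc, a collagen-binding protein, had 785 to 1141 FPKM at D0 and 1224 and 884 in MEF, and the groups overlapped.

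Of 22 epithelial genes, 1 was higher and 0 were lower in both combinations, with a median of 0.00. Of 20 smooth muscle contractile genes, 1 was higher and 1 lower. Over all tested genes the shares were 2.77% higher and 2.55% lower. Acta2, smooth muscle actin, overlapped between the groups, with 587 to 1224 FPKM at D0 and 770.1 and 1153 in MEF.

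**Figure D3:**
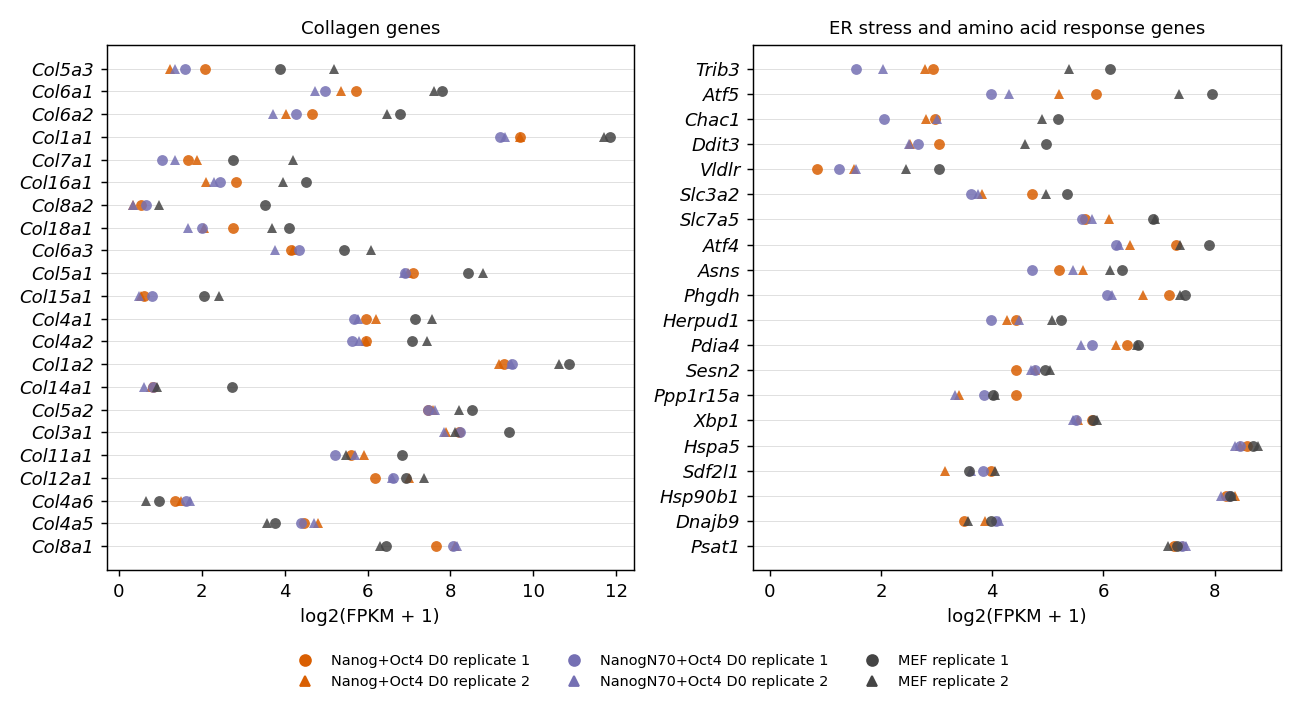
Log2(FPKM + 1) on the horizontal axis in each of the 6 libraries for the 22 tested collagen genes (left) and the 20 tested genes of the ER stress and amino acid response list (right), ordered by their averaged difference. For Col1a1 and Trib3 the D0 points lie to the left of both MEF points, whereas Col8a1 lies to the right and Hsp90b1 shows no separation.

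Some genes of the response to endoplasmic reticulum (ER) stress and amino acid shortage were lower at D0. The transcription factor ATF4 drives many of them, together with partners of the C/EBP family. Of 20 tested, 6 were lower and 0 higher in both combinations, with a median log2 difference of -0.88: Trib3, Atf5, Chac1, Ddit3, Vldlr and Slc7a5. Trib3, a pseudokinase that restrains ATF4, stood at 6.69 and 5.89 FPKM in Nanog+Oct4 D0, at 1.92 and 3.08 in NanogN70+Oct4 D0, and at 68.7 and 40.8 in MEF. Its log2 difference was -3.43 (SE 0.24, limma, adjusted p = 2.7e-09). All 4 D0 libraries were below MEF, which the naming rule required of this gene. NanogN70+Oct4 was the lower combination, without passing limma's test between the combinations.

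Atf5, a transcription factor of the same response, stood at 57.4 and 35.9 FPKM in Nanog+Oct4 D0, at 14.7 and 18.7 in NanogN70+Oct4 D0, and at 248 and 164 in MEF. Ddit3, the stress factor CHOP, stood at 7.29 and 4.72, at 5.37 and 4.70, and at 30.4 and 23.0 in MEF. Chac1, a glutathione-degrading enzyme, stood at 6.80 and 6.05, at 3.18 and 7.00, and at 35.6 and 28.8 in MEF. The groups did not overlap for any of the 3.

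The chaperones of the ER did not pass the test. Hspa5, the chaperone BiP, had 330.1 to 381 FPKM at D0 and 413 and 442 in MEF (log2 difference -0.27, limma, adjusted p = 0.081). Hsp90b1 had 276 to 331 at D0 and 308 and 316 in MEF. Atf4 itself was called in the average, with a log2 difference of -1.07, but not in Nanog+Oct4 D0 alone, where it was -0.75.

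The promoters of some of these genes hold the composite element to which C/EBP and ATF factors bind. The letters TGATGNAA were searched on both strands in the 250 bases before the start of each gene, and 4 of the 19 list members with a promoter sequence held them (21.1%), namely Asns, Chac1, Herpud1 and Vldlr. Of the 12087 tested genes with a promoter, 2.58% held them, and of all 27025 promoters 3.91%. Among the 290 genes lower in both combinations with a promoter, 11 held the element (3.79%), and among the 345 higher, 9 (2.61%). The list was chosen for genes of the ER stress and amino acid response, so its share does not bear on D0. A match is a description of the letters and not a site of binding. The promoters of Chac1 and Vldlr are shown because they hold the element and were lower at D0, and those of Nupr1, a stress-induced nuclear protein, and Pck2, a mitochondrial enzyme, were added after their values were seen. Sequences are from RefSeq, assembly GRCm38.p6, written 5′ to 3′ on the gene's strand with the element, here on the opposite strand, in capitals. Chac1 is at chr2:119350992-119351241 (plus strand), Vldlr at chr19:27216770-27217019 (plus strand), Nupr1 at chr7:126625471-126625720 (minus strand) and Pck2 at chr14:55540016-55540265 (plus strand).
Chac1: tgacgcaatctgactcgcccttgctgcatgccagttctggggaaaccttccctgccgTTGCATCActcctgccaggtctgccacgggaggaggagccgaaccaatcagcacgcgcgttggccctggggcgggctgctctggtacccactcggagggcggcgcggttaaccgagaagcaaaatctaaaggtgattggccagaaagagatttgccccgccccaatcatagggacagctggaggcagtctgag
Vldlr: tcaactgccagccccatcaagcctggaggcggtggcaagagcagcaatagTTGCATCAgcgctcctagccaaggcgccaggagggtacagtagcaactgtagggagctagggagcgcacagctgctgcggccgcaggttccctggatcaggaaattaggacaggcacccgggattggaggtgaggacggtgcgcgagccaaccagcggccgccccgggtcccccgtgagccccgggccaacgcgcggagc
Nupr1: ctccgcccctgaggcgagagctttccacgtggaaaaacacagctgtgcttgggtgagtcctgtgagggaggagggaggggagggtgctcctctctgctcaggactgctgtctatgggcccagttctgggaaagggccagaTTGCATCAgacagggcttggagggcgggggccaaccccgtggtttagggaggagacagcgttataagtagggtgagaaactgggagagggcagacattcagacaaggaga
Pck2: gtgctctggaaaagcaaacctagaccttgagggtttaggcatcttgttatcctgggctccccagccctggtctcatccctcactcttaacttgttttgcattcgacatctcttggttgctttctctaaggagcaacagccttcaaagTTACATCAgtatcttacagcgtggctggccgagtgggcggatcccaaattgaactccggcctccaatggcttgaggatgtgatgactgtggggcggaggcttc

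The element lay 185, 192, 102 and 95 bases before the start in that order. Nupr1 stood at 19.6 and 5.36 FPKM in Nanog+Oct4 D0, at 2.56 and 3.43 in NanogN70+Oct4 D0, and at 82.4 and 49.8 in MEF. Its Nanog+Oct4 libraries differed by over 1 on the log2 scale, but both were below MEF. Pck2 stood at 26.1 and 23.4, at 15.4 and 20.4, and at 83.2 and 54.0 in MEF, without overlap. The octamer ATTTGCAT, the classical Oct-factor motif, was in 1.72% of tested promoters, in 7 of the 345 higher (2.03%) and in 9 of the 290 lower (3.1%). The AP-1 letters TGANTCA were in 5.65% of tested promoters, in 34 of the higher (9.86%) and in 21 of the lower (7.24%). In the same order the TEAD letters were in 13.1%, 11.9% and 13.8%, and the E-box in 9.42%, 6.96% and 6.9%. The CCAAT box was in 40.7%, 41.4% and 40.3%, and the CArG box in 1.52%, 2.32% and 2.76%. No test was run on these shares.

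Genes of insulin-like growth factor signalling were listed together with H19, the neighbour of Igf2. Of 11 tested, 4 were lower and 0 higher in both combinations, namely H19, Igf2, Igfbp4 and Igfbp5, and the median log2 difference was -1.07. Igf2, a growth factor of the fetus, stood at 353 and 436 FPKM in Nanog+Oct4 D0, at 399 and 349 in NanogN70+Oct4 D0, and at 2004 and 804 in MEF. Igfbp5, which binds and holds the ligand in the matrix, stood at 5.87 and 7.71, at 8.66 and 7.37, and at 239 and 148 in MEF. The D0 libraries lay close together for both genes, and the MEF libraries were apart by more than the whole D0 range. Igfbp4 fell by 1.92 on the log2 scale but was not called without MEF replicate 1.

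TGF-beta, a growth factor, and YAP, a mechanically regulated coactivator, drive matrix genes. Of 18 tested on a list of their targets, 4 were lower and 0 higher, with a median of -0.42. The list also holds ligands and receptors such as Tgfb2 and Tgfbr1. Ltbp2, a latent TGF-beta binding protein, stood at 9.36 and 8.76 FPKM in Nanog+Oct4 D0, at 13.8 and 10.8 in NanogN70+Oct4 D0, and at 29.0 and 51.5 in MEF. Tgfb2, a ligand, had 7.21 to 12.4 at D0 and 24.3 and 23.0 in MEF. Tgfbi, a secreted matrix protein, had 10.8 to 15.4 at D0 and 72.7 and 24.3 in MEF, and lost its call without MEF replicate 1. The YAP targets Ctgf and Cyr61 were not called, with log2 differences of 0.79 and 0.08.

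Some targets of p53, the factor that halts the cycle after DNA damage, were higher. They were on a list of p53 targets and senescence genes, which also holds genes such as Trp53 and Cdkn2a that are not p53 targets. All 4 D0 libraries were above both MEF libraries for 9 of its 24 tested members and below for 6. Over all 17049 tested genes these counts were 3134 and 3080. Of the 24, 5 were higher and 0 lower in both combinations, with a median of 0.45. The 5 were Eda2r, Fas, Rprm, Ccng1 and Mdm2. Eda2r, a death receptor of the TNF family, stood at 38.6 and 62.4 FPKM in Nanog+Oct4 D0, at 63.7 and 66.9 in NanogN70+Oct4 D0, and at 7.56 and 9.91 in MEF (log2 difference 2.58, SE 0.22, limma, adjusted p = 2.9e-08). Fas, another death receptor, stood at 17.8 and 10.5, at 20.2 and 16.8, and at 3.44 and 1.53 in MEF. Ccng1, cyclin G1, stood at 414 and 677, at 542 and 635, and at 139.6 and 224 in MEF. None of these 3 overlapped between D0 and MEF.

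The best known p53 target was not called. Cdkn1a, the cycle inhibitor p21, had 201 to 303 FPKM at D0 and 128 and 197 in MEF (log2 difference 0.59, limma, adjusted p = 0.0034). Mdm2, the ligase that degrades p53, had 39.3 to 49.8 at D0 and 16.6 and 24.9 in MEF, a log2 difference of 1.11. Of 29 genes of DNA replication, limma called 0 in both combinations, with 6 lower at an unadjusted p below 0.05 in both. Of 29 mitosis genes, 1 was lower in both combinations, the kinase Plk1. It had 11.4 to 19.6 FPKM at D0 and 32.8 and 29.9 in MEF. Every D0 library was below both MEF libraries for 14 of the 29 replication genes and above both for 1. For the 29 mitosis genes these counts were 11 and 2, and over all 17049 tested genes 3080 and 3134. The median log2 differences were -0.24 for the replication genes and -0.21 for the mitosis genes.

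Of 19 genes of oxidative stress and metal binding, 3 were higher and 0 lower, against 2.77% and 2.55% of all tested genes. The list's median was 0.23. Nqo1, a quinone reductase under NRF2, stood at 24.8 and 23.4 FPKM in Nanog+Oct4 D0, at 24.6 and 29.1 in NanogN70+Oct4 D0, and at 5.71 and 5.24 in MEF. All 4 D0 libraries were above MEF for Nqo1, and without replicate 1 of Nanog+Oct4 D0 1 member of the list was called.

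Genes of glycolysis and the response to low oxygen were lower in 3 of 22 and higher in 0, with a median of -0.38. Of all tested genes, 2.55% were lower and 2.77% higher in both combinations. Hk2, a hexokinase, stood at 3.64 and 4.18, at 2.98 and 2.71, and at 10.2 and 15.2 FPKM in MEF. Vegfa, an angiogenic factor induced by low oxygen, had 9.54 to 11.1 at D0 and 28.0 and 36.4 in MEF. Of 23 cholesterol synthesis genes, limma called 0 in both combinations, with 1 higher and 5 lower at an unadjusted p below 0.05 in both. At that cut 2126 of all 17049 tested genes were higher and 2016 lower.

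**Figure D4:**
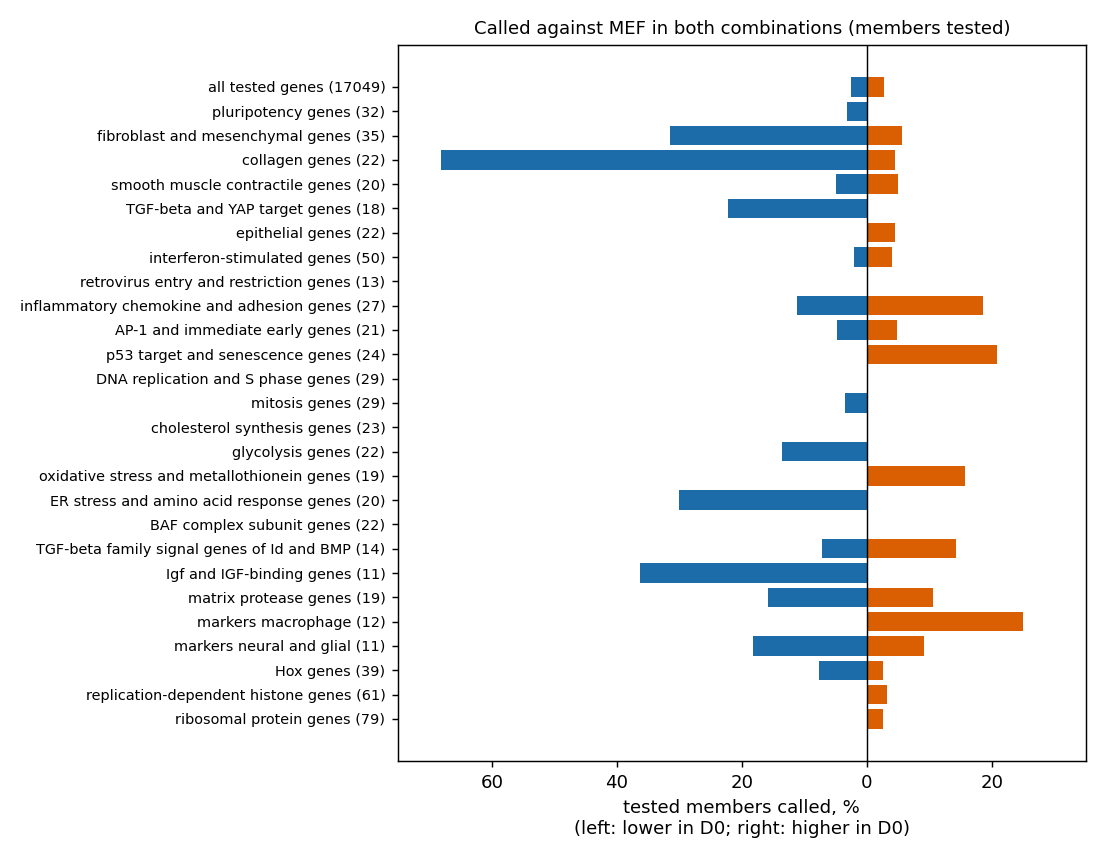
Share of the tested members of each gene list called against MEF in both combinations, as percent on the horizontal axis, with lower genes to the left and higher genes to the right of 0 and the number tested in brackets. Over all 17049 genes the bars are 2.55% and 2.77%, and the longest bar is that of the collagen genes, with 15 of 22 lower. Lists with under 10 tested members are not drawn.

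Inflammatory genes moved in both directions. Of 27 chemokine and adhesion genes tested, 5 were higher and 3 lower in both combinations, with a median of 0.23. Over all tested genes the shares were 2.77% and 2.55%. Cxcl5, a chemokine for neutrophils, stood at 25.2 and 18.0 FPKM in Nanog+Oct4 D0, at 24.3 and 21.8 in NanogN70+Oct4 D0, and at 4.44 and 2.2 in MEF. Cxcl12, the chemokine of stromal niches, stood at 12.4 and 12.3, at 9.02 and 10.9, and at 128 and 53.4 in MEF. Neither gene overlapped between D0 and MEF, and the opposite directions held in all 4 D0 libraries. Without replicate 1 of Nanog+Oct4 D0, or without MEF replicate 2, 3 genes of the list were higher.

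Cxcl1, another neutrophil chemokine, stood at 13.3 and 3.58 FPKM in Nanog+Oct4 D0, at 9.22 and 4.24 in NanogN70+Oct4 D0, and at 1.24 and 0.536 in MEF. Replicate 1 was the higher library in both combinations, and all 4 were above MEF. The NF-kB letters (GGGA, then any base, then TTTCC) were searched on both strands. They were in the promoters of 5 of the 20 list members with a sequence (25%), namely Csf1, Cxcl1, Cxcl2, Il6 and Nfkbia. Of tested promoters 0.397% held them, and of all promoters 0.414%. The list was chosen for inflammatory genes, so its share does not bear on D0. Among genes called in both combinations, 3 of the 345 higher held the letters (0.87%), Cxcl1 among them, and 0 of the 290 lower. The promoter of Cxcl1 is shown as the list member called higher, with the letters in capitals 61 bases before the start. It is at chr5:90890995-90891244 of GRCm38.p6 (plus strand).
Cxcl1: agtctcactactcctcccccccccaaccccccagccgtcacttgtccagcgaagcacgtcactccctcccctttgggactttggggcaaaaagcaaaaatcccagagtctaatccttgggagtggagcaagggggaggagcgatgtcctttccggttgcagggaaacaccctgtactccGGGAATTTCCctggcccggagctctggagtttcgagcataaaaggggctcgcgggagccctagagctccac

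Csf1, a growth factor of macrophages with the same letters in its promoter, was not called, with 46.6 to 61.5 FPKM at D0 and 42.6 and 73.4 in MEF.

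Genes of the interferon response, which cells raise against viruses, had few calls. Of 50 tested, 2 were higher and 1 lower in both combinations, against 2.77% and 2.55% of all tested genes, with a median of 0.18. More leaned up than down, with 7 of the 50 higher and 1 lower at an unadjusted p below 0.05 in both. At that cut 2126 of all 17049 tested genes were higher and 2016 lower. All 4 D0 libraries were above both MEF libraries for 18 of the 50 members and below for 1. Over all 17049 tested genes these counts were 3134 and 3080 (18.4% and 18.1%). Ifi203 stood at 3.75 and 3.86 FPKM in Nanog+Oct4 D0, at 7.21 and 5.51 in NanogN70+Oct4 D0, and at 0.0887 and 0.0192 in MEF. Ifitm3, a restriction factor at membranes, overlapped, with 95.9 to 195 at D0 and 237 and 121 in MEF. Of 13 genes of retrovirus entry and restriction, limma called 0, with 2 lower at an unadjusted p below 0.05 in both, and Trim28, a corepressor of retroviral elements, had a log2 difference of -0.38.

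Genes of the pluripotent state were not called higher at D0. At an unadjusted p below 0.05 in both, 0 of 32 pluripotency genes tested, besides the factors themselves, were higher and 3 lower. Over all 17049 tested genes these counts were 2126 and 2016. After adjustment limma called 0 higher and 1 lower in both combinations, and the median was 0. The lower one, the cell cycle regulator Mybl2, had 1.35 to 3.45 FPKM at D0 and 4.62 and 7.40 in MEF, and lost its call without MEF replicate 2. Klf4, a reprogramming factor already present in fibroblasts, stood at 27 and 13 in Nanog+Oct4 D0, at 8.69 and 5.08 in NanogN70+Oct4 D0, and at 15 and 14.1 in MEF. Its direction against MEF was not the same in the combinations, at 0.35 and -1.02 on the log2 scale.

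Of 22 BAF complex subunits, limma called 0 in both combinations, and the median was -0.27. At an unadjusted p below 0.05 in both, 1 was higher and 6 lower, against 2126 and 2016 of all 17049 tested genes. Smarca4, the ATPase BRG1 to which the fused stretch binds, had 22.4 and 26.8 FPKM in Nanog+Oct4 D0, 20 and 18.1 in NanogN70+Oct4 D0, and 30.0 and 35.2 in MEF. All 4 D0 libraries were below MEF by a log2 difference of -0.57, under the limit.

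BMP signalling held 2 higher and 1 lower of 14 genes, against 2.77% and 2.55% of all tested genes. Nog, the BMP antagonist noggin, stood at 4.18 and 4.71 FPKM, at 6.34 and 10.8, and at 0.478 and 0.599 in MEF. Smad6, an inhibitory SMAD, had 5.07 to 7.10 at D0 and 16.1 and 14.5 in MEF. Of 19 matrix protease genes, 2 were higher and 3 lower, the higher ones being Adamts1, with 171 to 187 FPKM at D0 and 55.2 and 32.6 in MEF, and Adamts5. None of the 3 lower ones was called without replicate 2 of Nanog+Oct4 D0.

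Some lists had few calls, to be read against the 2.77% higher and 2.55% lower of all tested genes. Among 39 Hox genes, which record position along the body, 1 was higher and 3 lower. Hoxa5 stood at 4.07 and 3.57 FPKM, at 2.98 and 5.00, and at 30.1 and 13.6 in MEF, while Hoxc13 had 1.57 to 3.58 at D0 and 0.593 and 0.394 in MEF. Of 61 replication-dependent histone genes 2 were higher, of 79 ribosomal protein genes 2 were higher, and 0 of either were lower. Of 21 AP-1 and immediate early genes, 1 was higher and 1 lower.

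Markers of cells other than fibroblasts differed between D0 and MEF. Of 12 macrophage markers tested, 3 were higher and 0 lower in both combinations, with a median of 0.98. All 4 D0 libraries were above both MEF libraries for 7 of the 12 and below for 0. Over all 17049 tested genes these counts were 3134 and 3080. The summed level of the list was 185 and 63.7 FPKM in Nanog+Oct4 D0, 117 and 61.8 in NanogN70+Oct4 D0, and 6.79 and 16.6 in MEF. Most of that sum at D0 was Lyz2, lysozyme, at 121 and 41.0, at 77.7 and 42.1, and at 2.42 and 3.87 in MEF. The common leukocyte gene Ptprc was under 1 FPKM in all 6 libraries, and Cd68 had 4.72 to 11.5 at D0 and 1.11 and 2.00 in MEF. Without MEF replicate 1 a single macrophage marker was called, and without MEF replicate 2 5 were. The part of such cells in the rise of Lyz2 and of the inflammatory genes was not tested.

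Cartilage and bone markers were lower in 3 of 8, with a summed level of 12.7 to 21.4 FPKM at D0 and 114 and 49.9 in MEF. Col2a1, the collagen of cartilage, stood at 6.56 and 13.2, at 4.27 and 7.85, and at 93.7 and 38.3 in MEF. Skeletal muscle markers summed to 4.34 to 12.9 at D0 and 22.7 and 82.6 in MEF, with 1 of 6 lower. Neural and glial markers were split, 1 higher and 2 lower of 11. The higher one, Stmn2, a regulator of microtubules in neurons, stood at 31.2 and 23.0 in Nanog+Oct4 D0, at 64.0 and 57.8 in NanogN70+Oct4 D0, and at 3.89 and 6.05 in MEF, while Tubb3, a neuronal tubulin, had 4.38 to 13.8 at D0 and 28.2 and 41.6 in MEF. Endothelial markers were split too, 1 of 6 each way, adipocyte markers had 1 of 5 higher, and neither the 4 keratinocyte markers nor the 1 erythroid marker tested gave a call, with 1 keratinocyte marker lower at an unadjusted p below 0.05.

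Among 5 RNAs that stay in the nucleus 3 were lower at D0, with a median of -1.76. Malat1 stood at 11.8 and 13.3 FPKM in Nanog+Oct4 D0, at 11.5 and 14.1 in NanogN70+Oct4 D0, and at 116 and 80.5 in MEF. Rn45s, the precursor of ribosomal RNA, which was looked at after its values were seen, had 77.0 to 181 at D0 and 1659 and 2085 in MEF. The labels and the study's methods name different mRNA library kits, and which was used bears on what such values of ribosomal RNA mean. Of 5 genes that mark embryo sex, 1 was called, with 3 higher and 1 lower at an unadjusted p below 0.05 in both. All 4 D0 libraries were above both MEF libraries for the 4 Y-linked genes and below both for Xist. Xist, expressed from the inactive X of females, had 2.76 to 7.43 at D0 and 22.6 and 13.6 in MEF, and the Y-linked Ddx3y, which was not called, had 13.4 to 23.9 at D0 and 9.67 and 10.5 in MEF (log2 difference 0.88). The part of embryo sex or of library preparation in any gene above was not tested, and the fall of Xist was not called without MEF replicate 1.

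Later days of the same series show which D0 levels lasted, given as means ± SD over 2 libraries and with no test. Gap43 was higher still at D1, with 590 ± 97.1 FPKM in Nanog+Oct4 and 508 ± 23.5 in NanogN70+Oct4. Mme had fallen to 9.71 ± 5.03 and 9.25 ± 4.12 by D1, near its MEF mean of 3.43 ± 3.84. The high level of Mme was thus seen at D0 in both combinations and not at the next day sampled, after the change of medium. In Nanog+Oct4 it was high again later, at 45.0 ± 1.33 on D10 and 52.8 ± 16.2 on D12, against 3.95 ± 1.92 and 6.39 ± 1.47 in NanogN70+Oct4.

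Igfbp5, at 6.79 ± 1.30 and 8.02 ± 0.911 at D0, had risen to 250 ± 45.0 and 114 ± 16.2 by D3, against 193 ± 64.1 in MEF. Col1a1 was lower still at D3, with 243 ± 53.3 in Nanog+Oct4 and 123 ± 14.2 in NanogN70+Oct4. By D12 it was back at 779 ± 162 in Nanog+Oct4, near its D0 mean of 818 ± 5.91, and stood at 137 ± 46.8 in NanogN70+Oct4. Trib3 was still low in both combinations at D12, when it had 10.4 ± 3.75 and 6.26 ± 0.922 FPKM against 54.8 ± 19.7 in MEF. Malat1 stood at 49.7 ± 6.88 in Nanog+Oct4 and at 11.8 ± 1.99 in NanogN70+Oct4 at D12.

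**Figure D5:**
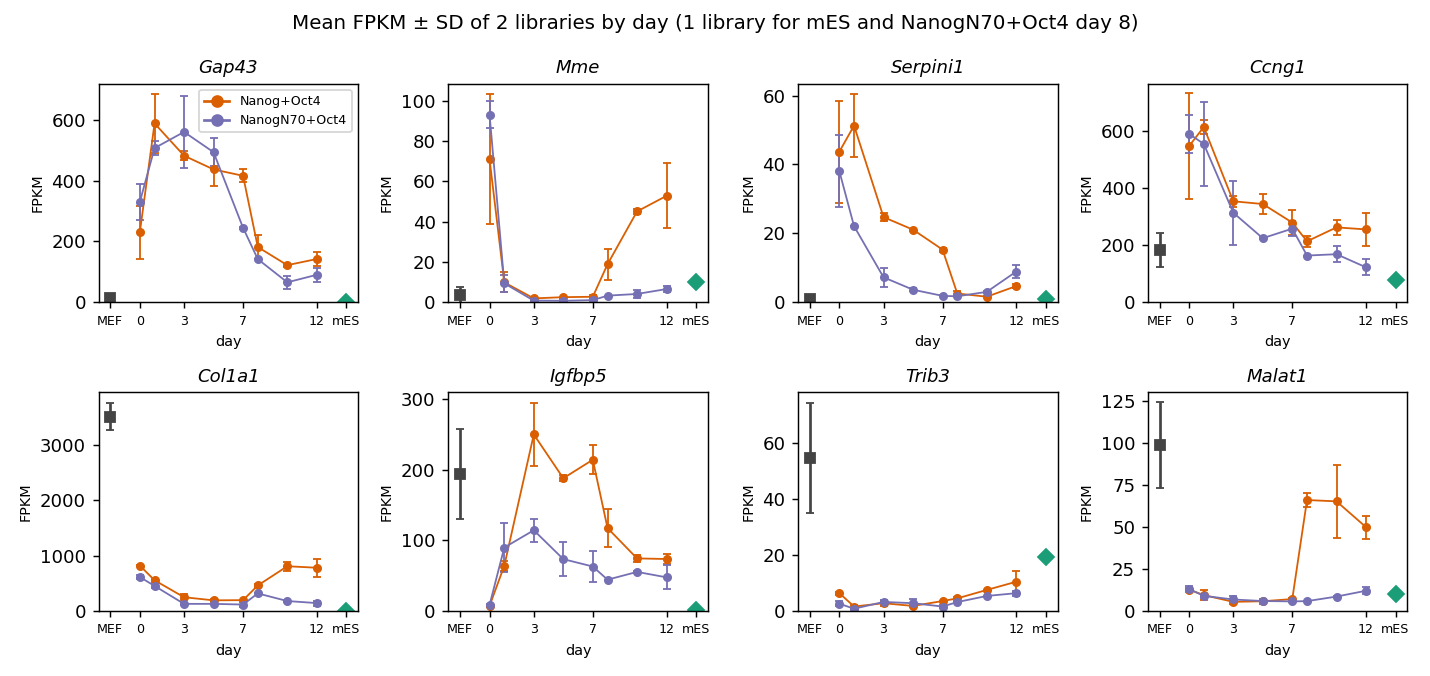
Mean FPKM of 8 genes (vertical axes, linear, each from 0) against day for both combinations, with MEF at the left and embryonic stem cells (mES) at the right of each panel. Bars are the SD of 2 libraries, and mES and NanogN70+Oct4 day 8 have 1 library. Mme is high at D0 and low at D1, Igfbp5 is low at D0 and higher at D3, and Trib3 stays below MEF throughout.

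The combinations were also set against each other at D0. Between NanogN70+Oct4 and Nanog+Oct4, 122 genes were called (0.716%), 35 of them among the 906 genes that moved the same way against MEF. Stmn2 was 1.15 higher in NanogN70+Oct4 on the log2 scale and Atf5 differed by -1.40. Called in NanogN70+Oct4 alone against MEF were 1027 genes, and in Nanog+Oct4 alone 249, which by itself does not show a difference between them.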

How the data were processed

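RNA was sequenced from day 0 cells of both combinations and from MEF, 2 libraries each. Per the labels, the authors trimmed reads with Trim Galore (0.6.4), aligned them to mm10 with HISAT2 (2.2.1) and computed FPKM with StringTie (2.2.1), and the deposited values are FPKM per gene symbol, not counts. The annotation and strand setting are not given in the sources used here. Every column of the table matched a sample. FPKM removes depth, and genes that share sequence can trade reads.

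Values were analysed as log2(FPKM + 1) with limma (3.58.1) in R (4.3.3) over all 34 libraries, with 1 mean for each of 18 groups, 16 residual degrees of freedom and an intensity trend. Of 37108 entries, the 17049 with at least 1 FPKM in at least 2 libraries were tested. Calls needed an adjusted p below 0.05 and a log2 difference of at least 1. The script was tested on simulated data. Named genes, beside Pou5f1, Nanog and Ss18, were the 12 largest rises and falls among protein-coding genes called the same way in both combinations, ranked by the smaller of the 2 differences, with all D0 libraries on 1 side of MEF and at least 5 FPKM in the higher group, plus up to 4 called and up to 2 uncalled members of each list and at most 4 non-coding genes. Members and gene lists were chosen with earlier results of these data known. Promoters are RefSeq sequences of GRCm38.p6, searched for 8 motifs. Alternatives changed the pseudocount, filter, scaling, libraries in the fit, replicate block, fold limit, GC and length trend and gene type, and left out each library in turn. A separate transcript table without day 0 libraries was not used here.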

Additional observations from a re-analysis of the deposited data

Results flagged for a closer look

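Of 164 named genes, 13 had 1 of their 4 D0 libraries far from the other 3, by the gap to the nearest library divided by the whole range, set against Dixon's limit. Chance alone gives about 1 such gene in 20. Replicate 1 of Nanog+Oct4 D0 was the highest library for Klf2 (ratio 0.899), Ctgf (0.867), Ier5 (0.876), Pfkl (0.840), Sqstm1 (0.891), Sod1 (0.877), Tubb3 (0.875) and Foxd3 (1), and the lowest for Slc7a1 (0.906) and Eda2r (0.841). Replicate 2 of Nanog+Oct4 D0 was the highest for Rmrp (1), and replicate 2 of NanogN70+Oct4 D0 was the highest for Timp2 (0.918) and the lowest for Gm11816 (0.861). That is 10 genes for replicate 1 of Nanog+Oct4 D0, the library of the pair with the widest spread. For Foxd3, at 0.484 FPKM, and Rmrp, at 1.38 FPKM, the other D0 libraries were at 0, which fixes the ratio at 1.

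Between the combinations at D0, 5 of the named genes passed limma's test of the difference itself, given as NanogN70+Oct4 minus Nanog+Oct4 on the log2 scale. Ss18 differed by 1.10, Lpl, the lipoprotein lipase of adipocytes, by 1.22 and Stmn2 by 1.15. Klf4 differed by -1.37 and Atf5 by -1.40. For Lpl the libraries were at 2.30 and 7.46 FPKM in Nanog+Oct4 D0 and at 10.8 and 11.8 in NanogN70+Oct4 D0, and its adjusted p of 0.048 in limma, like that of Klf4, was just below the threshold.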

How the results depend on the processing

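Counts are given as higher then lower, for the averaged contrast, the same way in both, NanogN70+Oct4 and Nanog+Oct4 in turn. A pseudocount of 0.1 gave 1360 and 1183, 871 and 659, 1641 and 1445, and 1111 and 879. The 6 libraries alone in 3 groups gave 446 and 294, 74 and 47, 496 and 323, and 90 and 51, and in 2 groups 396 and 323 for the average. No fold limit gave 2650 and 2367, 1487 and 1200, 2797 and 2303, and 1786 and 1527, and a log2 limit of 2 gave 111 and 117, 72 and 76, 160 and 173, and 99 and 87. With D0, D1 and MEF only, 286 genes were lower in both and 335 in Nanog+Oct4. Scaling to a common total shifted the median by -0.05 and changed the averaged split from 742 and 699 to 604 and 886. Leaving out 1 library gave 740 to 872 higher and 593 to 932 lower on average, 441 to 545 and 340 to 566 in both, 918 to 1156 and 739 to 1008 in NanogN70+Oct4, and 612 to 822 and 439 to 885 in Nanog+Oct4, with 822 reached without its replicate 2 and 885 without its replicate 1. Where 1 library of a group was left, it was assumed to vary like the other groups. The causes of these changes were not tested. With a pseudocount of 0.1 the replicate r was 0.952 in Nanog+Oct4 D0, 0.973 in NanogN70+Oct4 D0 and 0.966 in MEF, and with at least 5 FPKM it was 0.948 in Nanog+Oct4 D0.

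Adding a replicate block gave 750 and 714, 474 and 452, 989 and 977, and 633 and 550. Same-numbered libraries had correlated deviations of 0.23, 0.15 and 0.02, and with 2 numbers this does not show that they are paired. Of the 98 named genes called, 0 reversed under any setting, 38 were lost with the 6 libraries alone in 3 groups and 11 without MEF replicate 1. Depth limits low genes, and FPKM gives no counting interval.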
